A study of Sus scrofa with 6 samples.

Results

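The expression of 10 transcription factors that direct cell lineage was compared between 2 pig cell lines. They are MEIS2, NR2F1, NR2F2, TSHZ1, ETV5, PRRX1, MSX1, GATA3, HNF4A and ERG. They were taken as a fixed list of symbols, which was chosen with earlier results of these data known. Every probe set that carries 1 of these symbols alone in the platform annotation was used. This gave 22 probe sets out of 23935 tested, or 10 genes out of 6765. OBGF400 is a porcine olfactory bulb line that the labels call neuroblasts, and PK15 is an established pig kidney line labelled non-neuronal and epithelial, which the design uses as the somatic background. Both were untreated monolayers for which the labels name no allele or time point, and both were grown in medium with 10% bovine calf serum, penicillin, streptomycin and gentamicin. OBGF400 grew in DMEM/F12/HAM, and PK15 in minimum essential medium with added amphotericin B, so medium and line cannot be told apart. Extracts of 9 separate cultures per line were combined into 3 pools, each hybridized to 1 Affymetrix porcine array. Each group is therefore 1 line, and p-values measure the spread between pools of that line, not between animals.

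These factors bind DNA and set which genes a cell type can use. MEIS2, the COUP-TF nuclear receptors NR2F1 and NR2F2, the zinc finger protein TSHZ1 and the FGF-responsive ETS factor ETV5 take part in patterning the forebrain, where MEIS2 and TSHZ1 are known from interneurons of the olfactory bulb. PRRX1 and MSX1 are homeobox factors of limb, craniofacial and neural crest mesenchyme. HNF4A is a nuclear receptor of the proximal tubule, liver and gut, GATA3 acts in the nephric duct and collecting system as well as in T cells and sympathetic neurons, and ERG is an ETS factor best known from endothelium. Most of them have several sites of expression, NR2F2 and MEIS2 in mesenchyme among them, so the group names used here are labels for the list and not identities of the cells.

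The 10 genes did not split by group name. PRRX1, GATA3, ERG, MEIS2, NR2F1 and TSHZ1 were higher in OBGF400, HNF4A, ETV5 and MSX1 were higher in PK15, and NR2F2 did not pass the test. Values are log2 signals as deposited, differences are OBGF400 minus PK15, and a probe set is called when its adjusted p (limma, Benjamini-Hochberg over all tested probe sets) is under 0.05. Of the 22 probe sets, 8 were called higher, against 20.3% of all tested probe sets, and 4 were called lower, against 21.8%. With each gene represented by its probe set of highest mean, 6 of the 10 genes were higher, against 22.7% of all genes, and 3 were lower, against 35.4%. The median difference of the 10 was 2.75, beside -0.0018 over all genes. For 16 of the 22 probe sets all arrays of 1 line lay above all arrays of the other, compared with 50.6% of all tested probe sets. Because the list was chosen with earlier results of these data known, these shares describe it and test no enrichment. The table has a lower limit, called the floor here, at 2.13, and 11 of the 22 probe sets had a value above it that recurred exactly on at least 2 arrays (12.7% of all tested probe sets did), so a very small SD is no measure of precision and a difference against a low level depends on where that level was set. In RNA of whole cultures, fewer expressing cells and less RNA per cell cannot be told apart. The spiked controls on the arrays were not level between the lines: scaling on the hybridization controls moved the median difference of all probe sets to 0.82 and the share of calls that were higher from 48.2% to 86.1%, and scaling on the poly-A controls moved them to -0.73 and 14.3%. Centring each array on its median gave 25.9%. On such scales a gene at the floor in both lines carries only the shift of the scale and can be called. Counts for lists on these scales include such genes where a list holds them. Members that change sign on such a scale are named with their values. Adjusted p-values on the control scales were far smaller than on the deposited values. For PRRX1 limma gave 6.13e-06 as deposited, at a difference of 8.23, but 3.11e-30 on the poly-A control scale, at 7.50. They are therefore not comparable with the others and are no measure of the spread of a probe set's own pools.

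**Figure D1:**
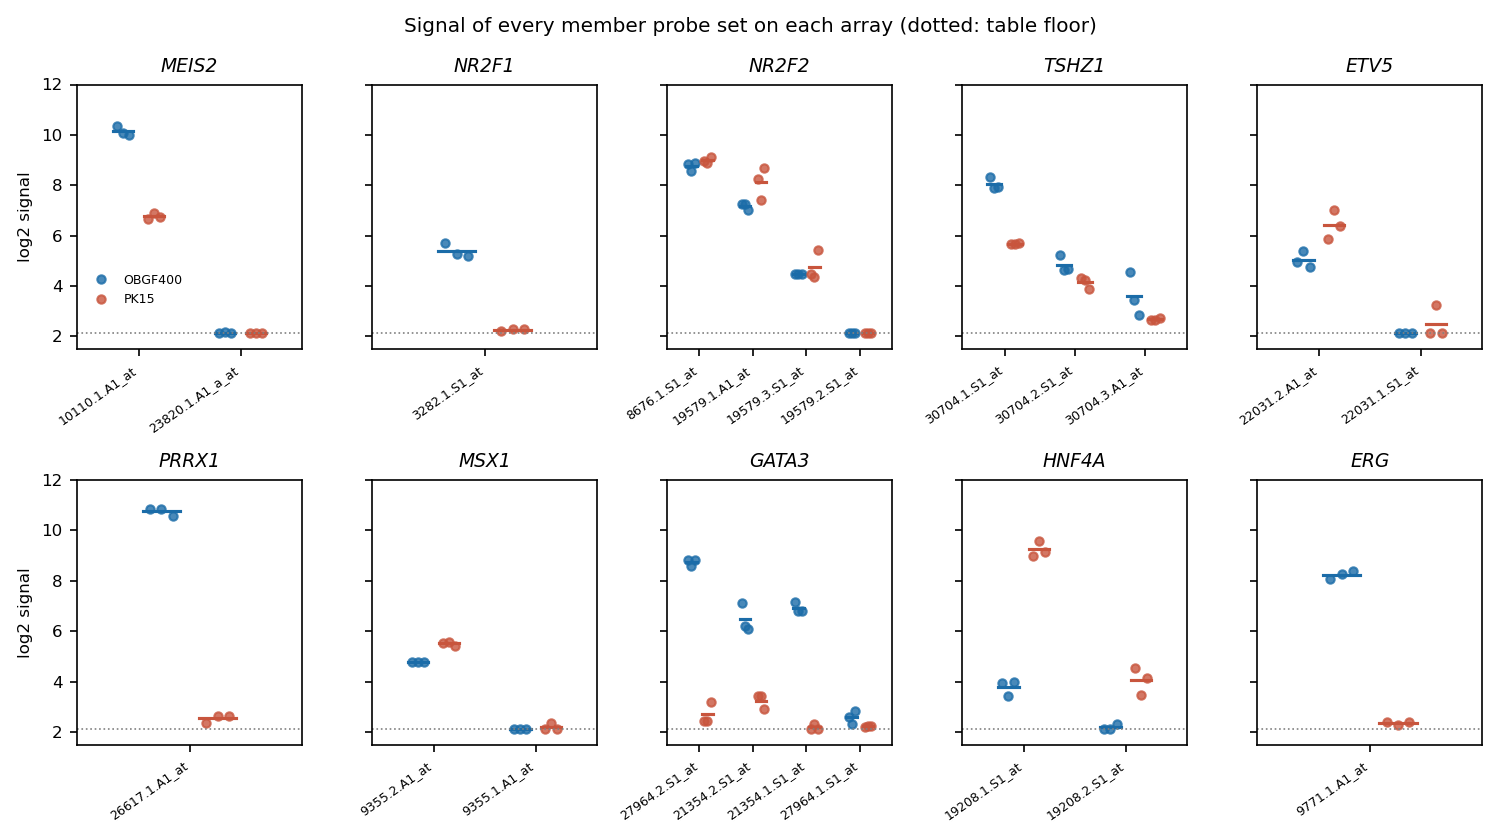
Log2 signal (vertical axis) of each of the 22 probe sets on every array, with 1 panel per gene, OBGF400 in blue and PK15 in red; points are the 3 arrays of a line, horizontal bars their mean, and the dotted line the floor of 2.13. PRRX1, GATA3 and ERG are near the floor in PK15 and well above it in OBGF400, HNF4A has the opposite order, and the second probe set of MEIS2 lies at the floor in both lines.

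Among the forebrain factors, MEIS2, NR2F1 and TSHZ1 were higher in OBGF400, ETV5 was lower and NR2F2 was not called. MEIS2, a TALE homeobox protein that binds DNA with PBX partners, gave 10.34, 10.08 and 9.99 on the OBGF400 arrays and 6.67, 6.88 and 6.74 on the PK15 arrays by its brighter probe set. Every OBGF400 array lay above every PK15 array, and PK15 was itself well above the floor. The difference was 3.37 ± 0.12 (SE, n = 3 arrays per line, adjusted p = 6.18e-05 by limma), a 10.3-fold higher signal. The other MEIS2 probe set stayed at the floor in both lines, between 2.13 and 2.17, and carries no comparison. MEIS1, the closest relative of MEIS2 among the listed genes, was higher by 3.44 ± 0.31 (SE, limma adjusted p = 0.00108), with both of its probe sets called the same way.

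NR2F1, also called COUP-TFI, gave 5.72, 5.29 and 5.17 in OBGF400 against 2.20, 2.30 and 2.30 in PK15. Its 1 probe set was close to the floor on all PK15 arrays, and the OBGF400 values were low to moderate, with no overlap. The difference was 3.13 ± 0.16 (SE, limma adjusted p = 0.000202) and became 1.01 when 32 was added to the linear values, a step that damps differences between low signals. NR2F2, COUP-TFII, behaved otherwise: its brightest probe set gave 8.85, 8.56 and 8.89 in OBGF400 and 8.98, 8.89 and 9.10 in PK15. The arrays overlapped, and the difference of -0.22 had a 95% interval from -0.54 to 0.09 (limma adjusted p = 0.227). On the hybridization control scale this probe set was called higher (0.60, limma adjusted p = 0.00223) and on the poly-A control scale lower (-0.96, limma adjusted p = 1.53e-05). The second brightest gave 7.26, 7.26 and 7.04 against 8.25, 7.41 and 8.69, a difference of -0.93 with an interval from -1.91 to 0.05 that was not called (limma adjusted p = 0.124). Without PK15 replicate 2, its lowest PK15 array, that probe set was called lower by limma (-1.28, adjusted p = 0.0123). It was also called lower with median centring (-1.01, limma adjusted p = 0.0355), on the poly-A control scale (-1.66, limma adjusted p = 2.33e-08) and among probe sets above the median (limma adjusted p = 0.0279). The third NR2F2 probe set read 4.47 on each OBGF400 array and 4.47, 4.37 and 5.44 in PK15, and the fourth lay at the floor on all 6 arrays. NR2F2 signal was thus present in both lines, while NR2F1 was near the floor in 1 of them. The difference between the responses of these relatives was not tested.

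TSHZ1, a teashirt zinc finger factor, gave 8.33, 7.89 and 7.93 in OBGF400 and 5.67, 5.67 and 5.69 in PK15 by its brightest probe set. The lines were clearly apart, with a difference of 2.38 ± 0.14 (SE, limma adjusted p = 0.000277), or 5.19-fold. Its 2 dimmer probe sets had the same sign without a call, at 0.68 (5.24, 4.62 and 4.66 against 4.32, 4.26 and 3.90) and at 0.93 (4.55, 3.44 and 2.84 against 2.66, 2.66 and 2.72). Neither of them overlapped between the lines. The former changed to -0.05 on the poly-A control scale, and it was called higher by limma on the hybridization control scale (1.51, adjusted p = 1.09e-06), with median centring (0.60, adjusted p = 0.0448) and after the filter that drops the dimmest probe sets (adjusted p = 0.0486). The latter fell to 0.46 without OBGF400 replicate 1, its highest array, and was called higher by limma on the hybridization control scale (1.75, adjusted p = 8.65e-05).

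ETV5 went the other way. It gave 4.96, 5.38 and 4.77 in OBGF400 and 5.89, 7.01 and 6.38 in PK15, a difference of -1.39 ± 0.36 (SE, limma adjusted p = 0.0362). PK15 varied most, with an SD of 0.57, and the call was lost when any OBGF400 array or PK15 replicate 2 or 3 was left out, with differences of -1.35, -1.56, -1.26, -1.10 and -1.41 (limma adjusted p from 0.0583 to 0.118), and was kept without PK15 replicate 1. Under hybridization control scaling it was -0.57 (limma adjusted p = 0.0615). The second ETV5 probe set was at the floor in OBGF400 and gave 2.15, 3.24 and 2.13 in PK15. Of 10 measured genes of the FGF pathway that ETV5 acts in, 4 were higher and 2 lower in OBGF400 and the median difference was 0.05. That median moved to 0.88 with 8 genes higher when the hybridization controls set the scale, and to -0.68 with 6 genes lower when the poly-A controls did. Genes at the floor are in both counts. The receptors FGFR2 (5.02) and FGFR1 (2.22) and the ligand FGF2 (2.36) were higher, whereas the ERK phosphatase DUSP6 (-2.35) and the immediate early factor EGR1 (-1.27) were lower. FGF2 was called by 1 of 2 probe sets and EGR1 by 1 of 3, while both probe sets of FGFR1 and of DUSP6 were called. DUSP6, EGR1 and ETV5 are known to follow ERK signalling, and FOSL1, another factor known to respond to ERK, was higher by 1.55 and called by 2 of 3 probe sets. FGF18, FGF7 and FGF9 were at the floor in both lines.

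Beyond these, only 7 of the 45 other forebrain factors listed had a named probe set, and 5 of those, BCL11A, DLX5, NEUROD1, NFIA and TSHZ2, were at the floor in both lines. NR4A2, a nuclear receptor of dopamine neurons that is also an immediate early gene, was higher in OBGF400 (10.14 ± 0.30 against 3.55 ± 0.38, SD, n = 3), and NFIB, a factor of glial and progenitor maturation, was lower (2.26 ± 0.14 against 8.67 ± 0.28, SD, n = 3). Of 11 measured neuron markers, UCHL1, NCAM1 and MAP2 were higher and 7 were at the floor in both lines, among them GAP43, STMN2 and SNAP25. On the hybridization control scale 11 were higher, and on the poly-A control scale 3 were higher and 8 lower. The 7 markers at the floor are in these counts and carry little beyond the shift of the scale. DCX, TUBB3, SOX2 and PAX6 were not analysed here. The log2 of the summed linear signal of these markers was 12.52 to 12.66 in OBGF400 and 5.84 to 5.93 in PK15, and UCHL1 alone read 12.26 to 12.39 in OBGF400.

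Of the mesenchymal factors, PRRX1 was far higher in OBGF400 and MSX1 was slightly lower. PRRX1 gave 10.86, 10.84 and 10.59 in OBGF400 and 2.35, 2.63 and 2.63 in PK15, the widest gap of the 22 probe sets. The difference was 8.23 ± 0.12 (SE, limma adjusted p = 6.13e-06), with 0.631% of all tested probe sets showing a larger absolute difference, and it was 5.55 with 32 added to the linear values. TCF21, a bHLH factor of kidney stroma and other visceral mesenchyme, had the most similar profile among 51 other listed transcription factors with a probe set, at a Euclidean distance of 0.43 over the 6 arrays after centring. Its level was 10.33 ± 0.15 in OBGF400 against 2.16 ± 0.06 (SD, n = 3). Of the 17 other mesenchymal and neural crest factors measured, 6 were higher and 1 lower and the median difference was 0. Hybridization controls as the scale put 15 higher and 1 lower, and poly-A controls 6 higher and 11 lower. Both scales count genes at the floor. TWIST2 (4.37) and the neural crest factor TFAP2B (3.48) were higher and KLF4, a factor of epithelia and pluripotent cells, was lower (-2.69). Of TFAP2B's probe sets 1 of 2 was called, and its OBGF400 SD was 0.99. SOX9, MYOCD, MEOX2, LHX9 and GLI1 were at the floor in both lines.

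Of 14 measured genes commonly high in PRRX1-expressing mesenchyme, 12 were higher in OBGF400 and 0 lower, with a median of 9.57. On the poly-A control scale 11 were higher and 3 lower. The smooth muscle actin ACTA2 (11.62), the cadherin CDH11 (11.61) and matricellular POSTN (10.04, by 1 of 2 probe sets) had the largest differences. By their brightest probe sets FN1 (0.11) and COL3A1 (0.07) were not called. FN1 was high in both lines, at 14.25 in OBGF400 and 14.15 in PK15, and 1 of its 4 probe sets was called higher. COL3A1 was low in both, at 2.65 and 2.58, and carries no comparison. The log2 of the summed linear signal of 12 fibroblast and mural markers was 16.81 to 16.85 in OBGF400 and 15.02 to 15.06 in PK15, where vimentin alone read 15.04 ± 0.02 (SD, n = 3). RGS5 was at the floor in both lines. All of these 12 markers except FAP and RGS5 were also among the 14 genes, so their sum is no separate result. Whether PRRX1 and these mesenchymal genes are expressed by the same cells of the cultures was not tested.

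MSX1, a homeobox repressor that BMP signalling induces, gave 4.77 on each OBGF400 array and 5.55, 5.58 and 5.42 in PK15. The lines did not overlap, but the difference was small, -0.75 ± 0.05 (SE, limma adjusted p = 0.000368), and its SE rests partly on an OBGF400 value that was identical on 2 of 3 arrays. It turned to 0.07 when arrays were scaled on the hybridization controls. The other MSX1 probe set was at the floor on 5 arrays. Of 13 measured BMP pathway genes, 9 were higher in OBGF400, 0 were lower and 4 were not called, with a median of 1.03. On the poly-A control scale 6 were higher and 3 lower (median 0.30), and on the hybridization control scale, where MSX1 was also above 0, 13 were higher. The BMP target ID3 (3.16), the type I receptor ACVR1 (2.93) and ID1 (1.85) were higher, as was the activin and BMP antagonist FST (5.92, by 1 of 2 probe sets). BMP4 was not called, with 3.57 ± 0.35 against 3.17 ± 0.00 (SD, n = 3), and BAMBI (0.24) was not called either, while BMP7 and ID2 were at the floor in both lines.

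The 2 nephron factors differed in opposite directions. GATA3, a zinc finger factor, was read by 4 probe sets. The brightest gave 8.82, 8.60 and 8.81 in OBGF400 and 2.45, 2.45 and 3.19 in PK15, a difference of 6.05 ± 0.25 (SE, limma adjusted p = 0.000102). The second probe set described here gave 7.17, 6.82 and 6.81 against 2.13, 2.33 and 2.13, with a difference of 4.73, and the third gave 7.11, 6.21 and 6.09 against 3.41, 3.41 and 2.91, with a difference of 3.23. All 3 were called higher without overlap, with limma adjusted p up to 0.00202, although the size of the difference varied from 9.36-fold to 66.2-fold. The fourth was between 2.20 and 2.81 on all arrays and was not called (0.35). With 32 added to the linear values the called differences shrank to 3.58, 2.07 and 1.55. The GATA family showed the same contrast within itself. GATA2 was higher in OBGF400 by 6.78 (10.20 ± 0.23 against 3.41 ± 0.31, SD, n = 3), by 1 of its 2 probe sets, while GATA6, a factor of endoderm and mesoderm derivatives, stayed at the floor on the OBGF400 arrays and reached 7.16 ± 0.28 (SD, n = 3) on those of PK15. GATA4 was at the floor in both.

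HNF4A, by contrast, had the largest difference toward PK15 among the members. It gave 3.93, 3.42 and 3.98 in OBGF400 and 9.00, 9.58 and 9.16 in PK15, a difference of -5.47 ± 0.24 (SE, limma adjusted p = 0.000126). The second probe set gave 2.13, 2.13 and 2.33 against 4.53, 3.48 and 4.16, and its difference of -1.86 was called as well (limma adjusted p = 0.00795). Both probe sets kept their direction and call under every alternative that tested them, the latter falling to -0.43 with 32 added. Of 24 measured genes known as HNF4A targets in liver, gut or tubule, 6 were lower in OBGF400, 2 were higher and 16 were not called, with a median of 0, and of those 16, 9 were at the floor in both lines. The targets higher in PK15 were CDH1 (-9.62), the protease DPP4 (-5.87), the microvillus protein VIL1 (-5.67), the apolipoproteins APOC3 (-3.38) and APOA1 (-2.26) and the gluconeogenic enzyme FBP1 (-2.20). With 32 added to the linear values 5 targets were lower, and FBP1 was at -0.56. Liver-type targets such as APOB, APOA2, TTR, SERPINA1 and FABP1 were at the floor in PK15 too. AGT (3.39) and the peptidase ANPEP (2.65) were higher in OBGF400. On the poly-A control scale 22 targets were lower and 2 higher, and on the hybridization control scale 6 were lower and 16 higher. Those counts take in targets that the floor alone sets.

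Among the 15 other nephron and epithelial factors measured, 2 were higher and 6 lower in OBGF400 and the median difference was -0.21. It was 0.62 on the hybridization control scale, with 9 higher and 6 lower, and -0.94 on the poly-A control scale, with 1 higher and 12 lower. Here too genes at the floor are in the counts. ELF3 (-5.88), an epithelial ETS factor, the splicing regulator ESRP1 (-5.09) and GATA6 (-5.03) differed most, and FOXA1 (-3.38), WT1 (-1.98) and OVOL1 (-1.97, by 1 of 2 probe sets) followed. NR5A2 (2.56, by 1 of 5 probe sets) and MECOM (0.70, -0.03 under poly-A control scaling) were higher. With 32 added to the linear values NR5A2 was at 0.75 and MECOM at 0.66, and 1 gene of the list was called higher. ESRP1 and ELF3 had the profiles nearest to that of HNF4A, at distances of 0.70 and 0.91. Of 11 kidney epithelium markers, 8 were higher in PK15 and 0 in OBGF400, led by KRT8 (-12.14), KRT18 (-11.56) and EPCAM (-11.48). On the hybridization control scale 3 were higher and 8 lower in OBGF400, and on the poly-A control scale 0 were higher and 10 lower. These marker genes are shared by many simple epithelia, and the tubule receptor LRP2 (2.46 ± 0.25 in PK15, SD, n = 3) and the water channel AQP1 (2.37 ± 0.00) were close to the floor there. CDH1 and LRP2 are also counted among the HNF4A targets, so these lists overlap.

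ERG gave 8.08, 8.26 and 8.37 in OBGF400 and 2.38, 2.26 and 2.38 in PK15 by its 1 probe set. PK15 was close to the floor, the lines did not overlap, and the difference was 5.90 ± 0.09 (SE, limma adjusted p = 6.69e-06), 3.17 with 32 added. Most endothelial markers were not higher beside it. Of 10 measured, 1 was higher in OBGF400 and 2 were lower, with a median of 0; on the hybridization and poly-A control scales 8 and 1 were higher and 1 and 9 lower, again with genes at the floor among them. KDR, TEK, TIE1, VWF and CLDN5 were at the floor in both lines, PECAM1 was at 2.15 ± 0.04 in OBGF400 (SD, n = 3) and CDH5 was at 2.20 ± 0.11 in OBGF400 against 4.43 ± 0.77 in PK15, by 1 of 2 probe sets. FLT1 was the other lower marker (-0.70, 4.35 in OBGF400 against 5.05 in PK15, by 1 of 3 probe sets). The FLT1 difference turned to 0.13 under hybridization control scaling. With 32 added to the linear values the CDH5 difference went from -2.24 to -0.58 and that of FLT1 to -0.31, and 1 marker was lower. ENG, a TGF-beta co-receptor that is also found on mesenchymal cells, was the marker that was higher (6.92 ± 0.32 against 3.45 ± 0.46, SD, n = 3). The log2 of the summed linear signal of the 10 markers was 7.27 to 7.61 in OBGF400 and 6.55 to 6.77 in PK15. Of 8 other endothelial and blood factors measured, GATA2 (6.78), the ETS factor ETV6 (2.03) and ETS2 (1.18) were higher, SPI1, the myeloid ETS factor, was lower (-4.02) and KLF2 and LMO2 were at the floor in both lines.

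Probe sets of 1 gene often reported different sizes of difference. For each gene with several probe sets, the within-array value of each dimmer probe set minus the brightest was compared between the lines in 1 limma fit over all 3304 such pairs. Of the 12 pairs among the members, 9 differed, beside 52% of all pairs. In GATA3 the dimmer probe sets differed from the brightest by -5.69, -2.82 and -1.32, and in HNF4A by 3.61, so every dimmer probe set showed a smaller absolute difference. MEIS2 (-3.36), TSHZ1 (-1.69 and -1.44), ETV5 (1.01) and MSX1 (0.68) had the same pattern of a smaller absolute difference in the dimmer probe set. The brightest probe set was chosen on the same arrays, and probe sets near the floor can show only small differences. The pattern was therefore partly fixed in advance and is no independent result. Only GATA3 and HNF4A had several called probe sets, and in neither did these disagree in sign. The 3 NR2F2 pairs were not called (limma adjusted p of 0.142 to 0.928). The mean over a gene's probe sets left the sign of all 10 genes as it was but reduced GATA3 to 3.59, MEIS2 to 1.69 and HNF4A to -3.67, and ETV5 was then not called (-0.88, limma adjusted p = 0.0763).

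**Figure D2:**
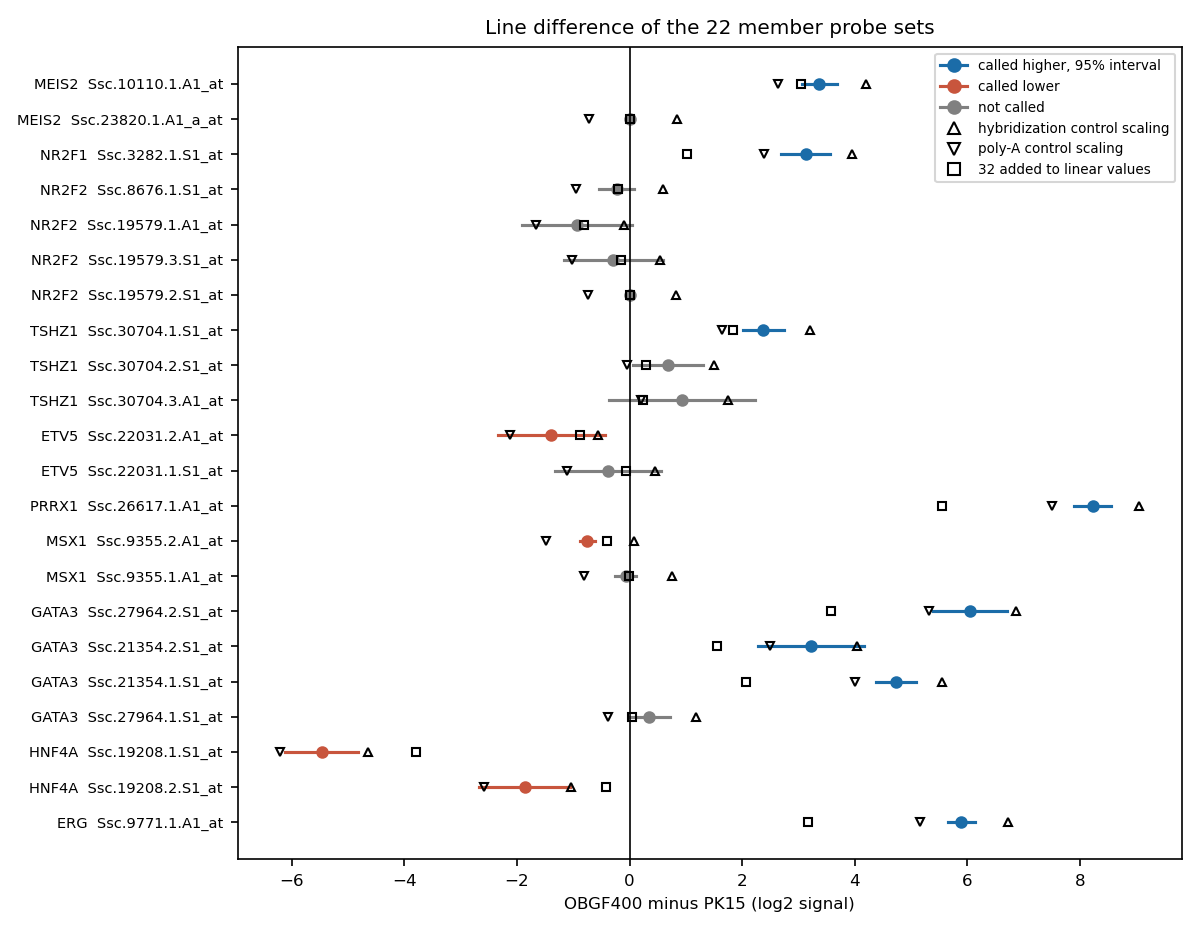
OBGF400 minus PK15 in log2 signal (horizontal axis) for the 22 probe sets, with the 95% interval of the limma fit; blue marks called higher, red called lower and grey not called, and open symbols give the difference after scaling on hybridization controls (up triangle), on poly-A controls (down triangle) or with 32 added to the linear values (square). The differences of PRRX1, ERG, HNF4A and the 3 called GATA3 probe sets stay on 1 side of 0 under all of them, whereas MSX1 moves from -0.75 to 0.07 under hybridization control scaling. The control scalings shift every probe set by 0.82 or -0.73, so larger differences keep their side by size alone.

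The families of the members were compared next. These families were assembled after the values had been seen, and every measured gene of each is counted. Of 8 measured ETS genes, 3 were higher in OBGF400, namely ERG, ETV6 and ETS2, and 3 were lower, namely ELF3, SPI1 and ETV5. The nuclear receptor subfamily that holds NR2F1, NR2F2 and HNF4A had 7 measured genes, of which NR2F1 and NR2F6 were higher and HNF4A was lower. NR2F6 differed by 0.14 only, and this became -0.59 under poly-A control scaling. Of 5 TALE homeobox genes, MEIS1 and MEIS2 were higher, the repressor TGIF1 was lower (-0.89, by 1 of 2 probe sets) and PBX2, a partner of MEIS proteins, was at 8.39 ± 0.08 and 8.45 ± 0.02 (SD, n = 3) and was not called. Among 11 cofactors and relatives of the nuclear receptors, RARA (1.04) and NR2F6 were higher and the coactivators NCOA2 (-2.51) and NCOA1 (-1.07) and the corepressor NCOR1 (-0.63) were lower, with a median of 0. On the hybridization control scale 8 were higher and 1 lower, and on the poly-A control scale 0 were higher and 9 lower. Cofactors at the floor are in these counts. NCOA2 was called by 1 of 3 probe sets and NCOA1 by 3 of 6. NCOR1 turned to 0.19 under hybridization control scaling, and RARA fell short of a call under poly-A control scaling, at 0.31.

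**Figure D3:**
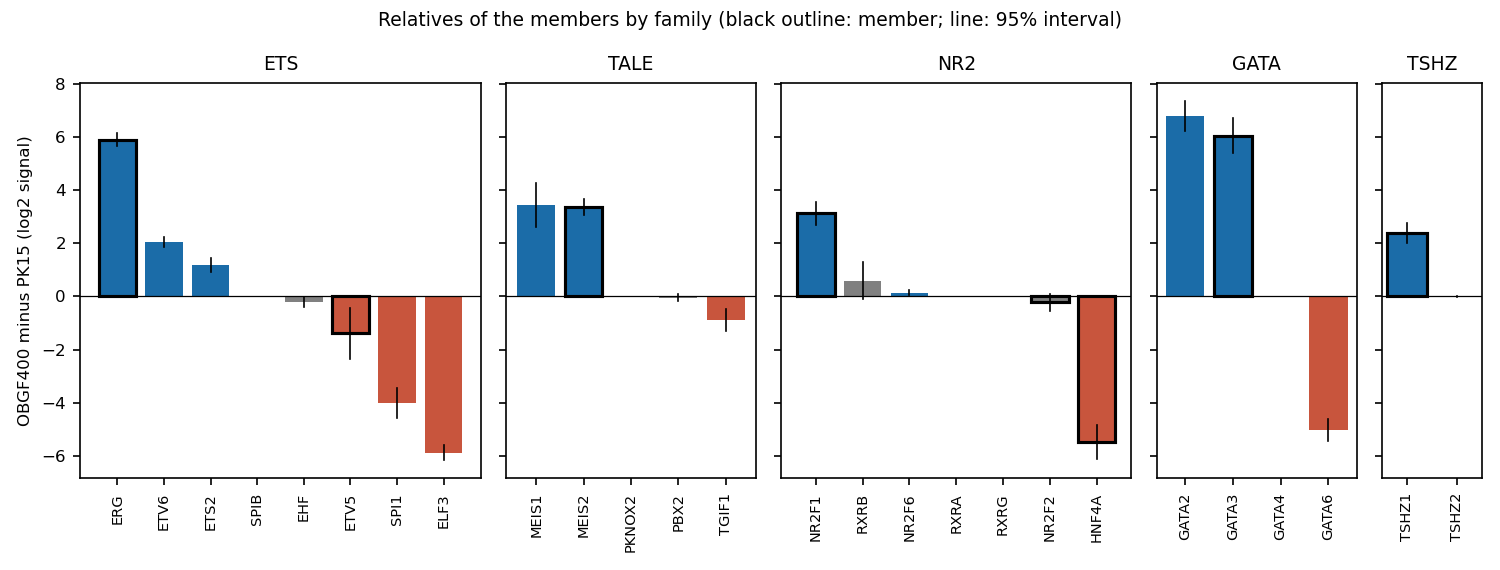
OBGF400 minus PK15 in log2 signal (vertical axis) of the brightest probe set of each measured gene of 5 transcription factor families (ETS, TALE, NR2, GATA and TSHZ); blue bars are called higher, red called lower and grey not called, vertical lines are 95% intervals and black outlines mark the members. Each of the ETS, GATA, TALE and NR2 panels holds called genes in both directions, from 6.78 for GATA2 to -5.88 for ELF3.

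The profiles nearest to the other called members, by the same centred distance over 6 arrays among 51 candidates, were MEIS1 (0.69) and TWIST2 (1.30) for MEIS2, MEIS1 (0.91) and NR5A2 (1.18) for NR2F1, ETV6 (0.62) and SNAI1 (0.70) for TSHZ1, NR4A2 (0.92) and GATA2 (1.18) for GATA3 and NR4A2 (1.08) and GATA2 (1.25) for ERG. GATA2 was also second nearest to PRRX1, at 1.91. For ETV5 they were TBX2 (1.23) and TGIF1 (1.32), and for MSX1 TGIF1 (0.52) and FOXA2 (0.56). With 2 lines and 3 arrays each, this distance mostly compares the size of the line difference.

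**Figure D4:**
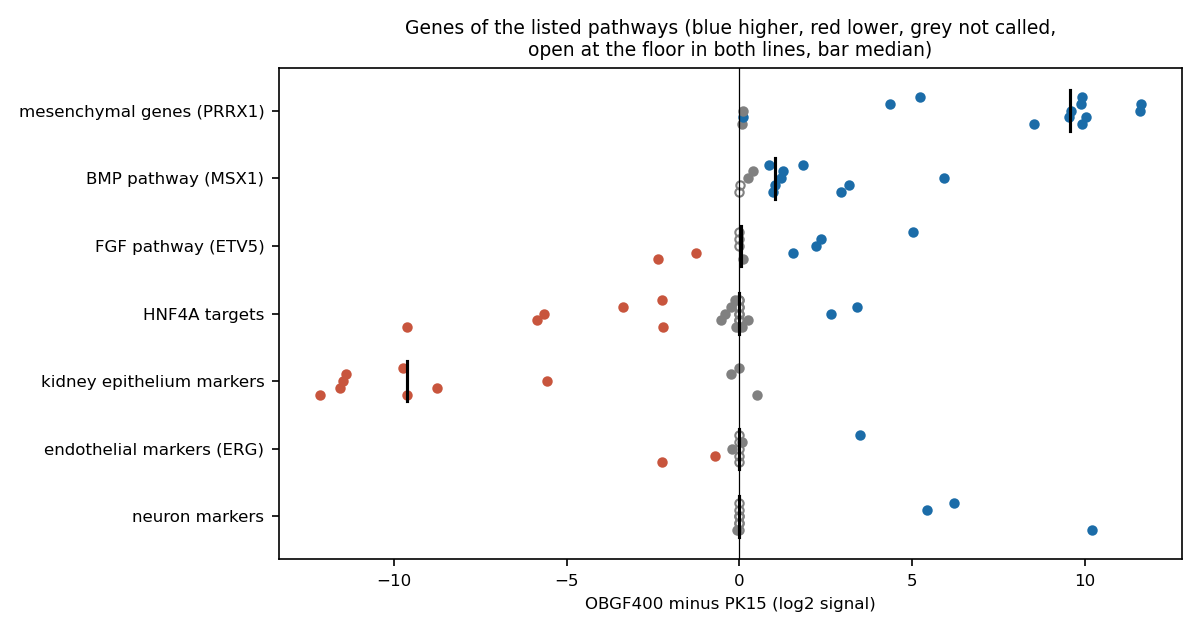
OBGF400 minus PK15 in log2 signal (horizontal axis) for the measured genes of the lists described above, with 1 point per gene, blue called higher, red called lower, grey not called and open symbols for genes at the floor in both lines; black bars are medians. The genes of PRRX1-expressing mesenchyme lie at a median of 9.57 and the kidney epithelium list at -9.62, while the endothelial, neuron and HNF4A target lists have a median of 0. Genes at the floor in both lines, 5 of 10, 7 of 11 and 9 of 24 in that order, hold these medians at 0.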

How the data were processed

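Gene expression was measured in 6 pools of untreated cells (3 OBGF400, 3 PK15) on Affymetrix porcine arrays, labelled from 8 µg of total RNA each, per the labels' protocols. The deposited values are log2 signals, 1 for each probe set on each array, a scale read from their range. Only the package affy is named in the submitters' processing notes. How the authors corrected background, summarised probes and normalized arrays is not given in the sources used here. Of 24123 probe sets, 124 AFFX and 64 reporter controls were left out. Symbols came from the platform annotation (10069 probe sets with 1 symbol, 198 with several, 13668 with none). The Entrez numbers of all 10 members carry the same symbols in RefSeq's pig gene table (Sscrofa11.1). Lines were compared with limma 3.58.1 (lmFit, eBayes, two-sided) in R 4.3.3, tested on simulated data, with no filter on low values and Benjamini-Hochberg adjustment over all probe sets. With 3 arrays against 3, an exact permutation p cannot go below 0.1. The floor is the table's minimum, and "at the floor" means within 0.1 of it on each array of the line. Named genes are all members, up to 3 called genes per list and direction with the largest differences, and the 2 nearest transcription factors; further names complete counts and were chosen after their values were seen. Members and lists were chosen with earlier results of these data known. Alternatives were quantile normalization, median centring, 2 control scalings, 2 filters, trended robust variance, array weights, 32 added, a stricter threshold, the replicate number as a block, single arrays left out and 2 units per gene. Replicate numbers were shared by the lines but did not pair the arrays (correlations of deviations of 0.039, 0.007 and 0.019 across probe sets). The number of arrays limits the precision.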

Additional observations from a re-analysis of the deposited data

How the results depend on the processing

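Over 19 alternatives, 346 of 382 values of single member probe sets kept their direction and side of the threshold. The filters, trended robust variance, replicate block, stricter threshold and brightest probe set per gene leave each difference as it was. Only the call could change there. The fourth NR2F2 probe set, with a difference of 0 as deposited, had no direction to lose. This count therefore overstates how far directions were put to a test. The called probe sets of MEIS2, NR2F1, TSHZ1, PRRX1, GATA3, HNF4A and ERG did so in every alternative that tested them. As deposited, 8 member probe sets were higher, 4 lower and 9 of 12 pairs differed. Scaling on hybridization controls gave 15 higher and 2 lower, poly-A scaling (dap and thr) 12 lower, and median centring 7 lower; all 3 also call probe sets at the floor in both lines. With only probe sets above the median, 11 member probe sets remained, which left pairs only in NR2F2 and GATA3, and 1 pair differed. The replicate block gave 8 higher, 4 lower and 7 pairs, and changed no call of a member probe set. Signs reversed under hybridization scaling for the brightest and the third NR2F2 probe sets (0.60 and 0.54), the dimmer ETV5 probe set (0.44) and both MSX1 probe sets (0.074 for the called one, 0.75 for the other). They reversed under poly-A scaling for the dimmer MEIS2 probe set (-0.72), the second TSHZ1 probe set (-0.049) and the dimmest GATA3 probe set (-0.38), and under median centring for the dimmer MEIS2 probe set (-0.067). Leaving out 1 array gave -0.48 to 0.053 for the third NR2F2 probe set, which reversed without PK15 replicate 3. The control scalings and median centring shift the difference of every probe set by 1 amount (0.82, -0.73 and -0.082). A smaller difference of the other sign, or of 0, must therefore change under them. Why the spiked controls differed between the lines was not tested.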
